A study of Mus musculus with 4 samples.

Results

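Among mouse leukaemia cells that carry the MLL-AF9 fusion, cells high in Lpl and Wfdc17 were described. They were chosen from a table of unique molecular identifiers (UMIs, each standing for 1 counted transcript molecule) per gene and cell barcode. Barcodes with at most 10% of their UMIs in mitochondrial genes were kept, and each was scored by its mean, over Lpl, Wfdc17, Tgm3, Cyp4f18 and Hacd4, of the natural log of 1 plus the UMIs per 10000. The members are the 8% of kept cells with the highest score, 436 of 5456. These 5 genes chose the cells, so their levels are a description, and every other result is on genes outside the score.

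GFP-positive cells were sorted from marrow of C57BL6 mice (11 weeks of age) and sequenced on the 10x Chromium 3' V2 platform. It holds 1 sample of each of 4 groups: Hif-1a KO with chemotherapy, Hif-1a wt with chemotherapy, Hif-1a KO with PBS and Hif-1a wt with PBS. All 4 share their origin: c-Kit+ marrow of Hif-1alpha lox/lox;CreERT2 mice, in which Cre acts after tamoxifen, was transduced with an MLL-AF9 retrovirus, whose carriers the GFP sort selects, and primary leukaemias were transplanted onward. Recipients had 1 mg tamoxifen or vehicle for 5 days from day 10, followed either by PBS or by chemotherapy, which was cytarabine (5 days, 100 mg/kg) and doxorubicin (3 days, 3 mg/kg), and cells were collected 3 days later. Barcodes carry a suffix, 1 to 4, that no source used here ties to a sample. The suffixes are therefore unlabelled samples, no genotype or treatment is compared, and members are set against the other kept cells of the same suffix. With 1 sample a group and no label on the suffixes there is no test, so "higher" and "lower" below are statements of size in these cells.

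Lipoprotein lipase, the product of Lpl, splits triglycerides in circulating lipoproteins into fatty acids, and in marrow-derived myeloid cells it is known from macrophages. Monocytes form in the marrow, enter blood with the help of the chemokine receptor Ccr2 and can become macrophages, which degrade what they take up in lysosomes. Proliferating myeloid precursors instead carry cell cycle transcripts and make the proteases of neutrophil granules.

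Members lay almost wholly in suffixes 3 and 4. They were 1 of 1174 kept cells in suffix 1 (0.0852%), 5 of 1251 in suffix 2 (0.400%), 244 of 1625 in suffix 3 (15.0%, exact binomial 95% interval 13.3 to 16.8) and 186 of 1406 in suffix 4 (13.2%, 11.5 to 15.1). The intervals of suffixes 3 and 4 overlap each other and lie far above those of suffixes 1 and 2, whose upper bounds are 0.474% and 0.930%. Only suffixes 3 and 4 hold the 30 members that were required for a comparison. Members were shallower than the other cells, with medians of 3494 and 3492 UMIs in members of suffixes 3 and 4 against 5809 and 5700 UMIs in other cells. Thinned to 2000 UMIs, they showed 926 and 916 genes per cell against 894 and 903 in other cells. In all, 899706 and 663420 UMIs of members stood against 9032943 and 7886951 UMIs of other cells, and counts are given as CPM, scaled to a total of 1000000 UMIs in each set of cells. A gene with no UMI is limited to 3 counts, which is 3.33 and 4.52 CPM in members and 0.332 and 0.380 CPM in other cells of suffixes 3 and 4. All intervals and limits cover counting error only.

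**Figure D1:**
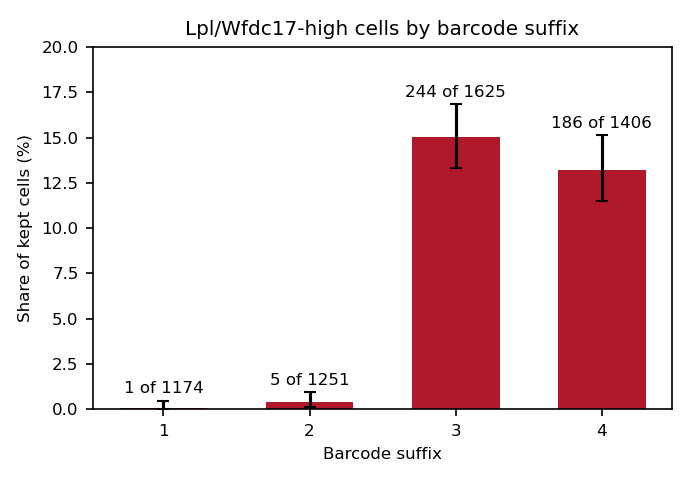
Share of kept cells (%, from 0) that are Lpl/Wfdc17-high cells in each barcode suffix, with exact binomial 95% intervals as error bars and the counts above. The bars of suffixes 3 and 4 stand at 15.0% and 13.2%, and those of suffixes 1 and 2 below 1%.

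The score genes combine lipid handling with secreted and cross-linking proteins. Lpl lies on chromosome 8 from 68880491 to 68907448 (plus strand, GRCm38), and it stood at 734 and 825 CPM in members of suffixes 3 and 4 against 32.2 and 23.5 CPM in other cells. Wfdc17, which encodes a small secreted WAP-domain protein (chromosome 11, 83703991 to 83706268, plus strand), stood at 7007 and 5175 CPM in members against 741 and 502 CPM in other cells. It was the most abundant of the 5 and was detected in every member. Tgm3, an enzyme that cross-links proteins (chromosome 2, 130012349 to 130050399, plus strand), had 210.1 and 223 CPM in members against 26.4 and 31.6 CPM in other cells. Cyp4f18, a cytochrome P450 that oxidises leukotriene B4 (chromosome 8, 71988482 to 72009626, minus strand), had 644 and 702 CPM in members against 119 and 108 CPM in other cells. Hacd4, of the family of dehydratases that elongate very long chain fatty acids (chromosome 4, 88396144 to 88438928, minus strand), had 382 and 368 CPM in members against 53.8 and 61.2 CPM in other cells. By per-suffix levels, Lpl had the widest gap between members and other cells.

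Few members carried all 5 genes: 79 had UMIs of all 5, 225 of 4, 125 of 3 and 7 of 2. The threshold cut through a continuous range, with the last member at a score of 1.46 and the first cell below it also at 1.46. The 50 lowest members held 275 CPM of Lpl and 509 CPM of Cyp4f18, and the 50 cells just below the threshold held 202 and 464 CPM. When each score gene was left out in turn and the 8% chosen by the other 4, the left-out gene was higher in the chosen cells of both suffixes. The 5 genes were chosen together with earlier results of these data known. This outcome was therefore largely fixed by that choice, and its values only describe how far the 5 genes go together. Lpl then stood at 526 (480 to 575) and 580 (523 to 642) CPM in the chosen cells against 52.3 (47.7 to 57.3) and 45.6 (41.0 to 50.6) CPM in other cells, where the ranges are exact Poisson 95% intervals. The left-out gene differed by 11.1-fold for Lpl, 6.60-fold for Wfdc17, 4.73-fold for Tgm3, 4.45-fold for Hacd4 and 4.11-fold for Cyp4f18, and 355 to 386 of the 436 chosen cells were the same as the members.

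Of 4651 genes with a mean of at least 20 CPM, 234 (5.03%) were at least 2-fold higher in members in both suffixes and 221 (4.75%) at least 2-fold lower. These percentages are the background for every list below, and the median log2 ratio over all measured genes was 0.05. Ratios are log2 of (CPM + 1) over (CPM + 1), averaged over both suffixes, and a call needs 2-fold in each. Of the measured genes, 228 were below 20 CPM in other cells of both suffixes, so they were measured only through the members, and 70 of the 234 higher genes are among them. Scaling by edgeR's TMM factors moved the median of all measured genes by -0.11, and higher genes then made up 39.8% of the calls (184 higher, 278 lower) in place of 51.4%. With every cell thinned to 2000 UMIs, which removes the gap in depth, 160 genes were higher and 165 lower.

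**Figure D2:**
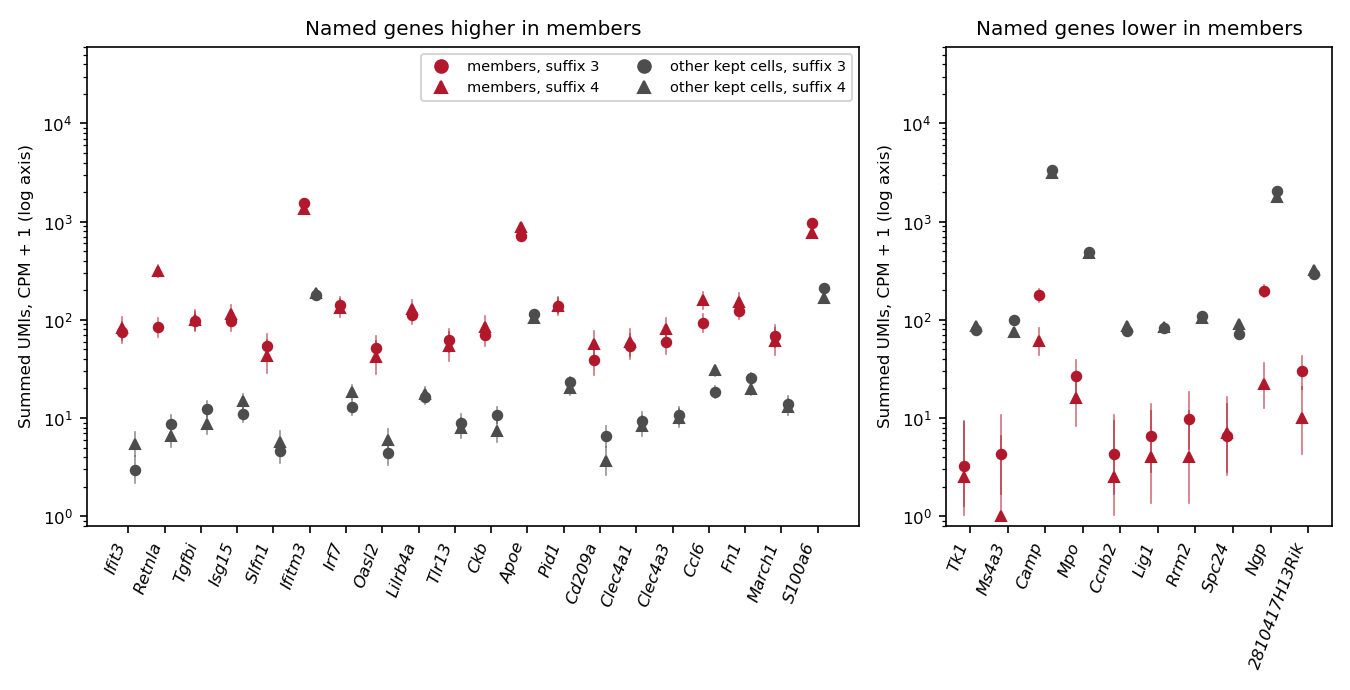
Level of the 20 leading higher genes (left panel) and the 10 leading lower genes (right panel) as CPM + 1 on a log axis, for members (red, left of each pair) and other kept cells (grey), with circles for suffix 3, triangles for suffix 4 and lines for exact Poisson 95% intervals. Members and other cells do not overlap for any of the 30 genes, and Ngp, Ms4a3 and Retnla differ most between the 2 suffixes of members.

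Monocyte genes and part of the macrophage genes were higher in members, and the genes that define resident macrophages were absent. Of 17 measured monocyte markers, 9 were called higher and 0 lower, with a median log2 ratio of 1.5. Ccr2, the receptor that monocytes use to leave the marrow, stood at 203 and 240 CPM in members of suffixes 3 and 4 against 46.7 and 46.3 CPM in other cells. Fn1, which encodes fibronectin, stood at 123 and 152 CPM in members against 24.6 and 18.9 CPM in other cells, a pooled ratio of 6.19 (5.20 to 7.34). Klf4, a transcription factor of monocyte formation, had 65.6 and 69.3 CPM in members against 16.9 and 20.2 CPM in other cells. All 3 were higher by more than their counting intervals in each suffix. Cx3cr1 of patrolling monocytes, S100a4, Ms4a4c, Cybb, Lgals3 and Ctss were the other 6 called, while Ly6c2, a surface protein of classical monocytes, stood at 2501 and 2501 CPM in members against 3018 and 3144 CPM in other cells and was not called. Of the 9 called, Cx3cr1 passed the minimum only through the members. Cx3cr1 and Cybb lost the call when cycling cells were left out of both sides, as described below.

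Of 25 macrophage markers only 8 were measured, and 6 of these were called higher with 0 lower (median log2 ratio 1.56), of which 2, Trem2 and Gpnmb, passed the minimum only through the members. Lyz2, the lysozyme of myeloid cells, stood at 14262 and 18215 CPM in members against 3470 and 4203 CPM in other cells. Apoe, a lipid carrier that macrophages secrete, stood at 718 and 888 CPM in members against 113 and 103 CPM in other cells, a log2 ratio of 2.87. Adgre1, the F4/80 antigen, had 127 and 116 CPM in members against 43.8 and 42.2 CPM in other cells. Hmox1, Trem2 and Gpnmb, which take part in haem breakdown, lipid sensing and the late lysosome, were the other 3 called, and Adgre1, Trem2 and Hmox1 lost the call when cycling cells were left out of both sides, as described below.
Against that, no UMI of the complement genes C1qa, C1qb or C1qc, of the receptors Mertk, Mrc1, Vsig4, Timd4, Axl and Siglec1, or of Spic was found in members of either suffix, and in other cells each of these 10 genes had 0 to 2 UMIs per suffix. A label of macrophage-like cells goes against these absent genes, so the cells are called here by their score genes.

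Markers of other lineages were low or divided. T and NK cell markers summed to 2.22 and 0 CPM in members of suffixes 3 and 4, erythroid markers to 2.22 and 7.54 CPM, megakaryocyte markers to 11.1 and 6.03 CPM and adipocyte markers to 15.6 and 22.6 CPM. In other cells the same 4 lists summed to between 2.99 and 12.4 CPM. Stromal and endothelial markers summed to 143 and 131 CPM in members against 96.8 and 98.6 CPM in other cells, where 1 of 12 genes, Pecam1, was measured. B cell markers summed to 66.7 and 66.3 CPM in members against 67.2 and 70.1 CPM in other cells, nearly all of it Cd79b. Of 15 basophil and mast cell markers 3 were measured and 2 were called higher: the protease Cpa3 had 239 and 124 CPM in members against 68.2 and 46.9 CPM in other cells, and the transcription factor Gata2 had 73.4 and 48.2 CPM in members against 25.9 and 22.2 CPM in other cells. The 10% of members with the most Cpa3 held 87.0% and 98.8% of its UMIs, and 18 and 5 members had 5 or more. Over 18 alternatives of processing Cpa3 was called in 13 and Gata2 in 12. The 18 include lower minimums, which cannot remove a call, and leaving out 1 suffix, which can do so only through the minimum. Leaving out cells marked by the doublet caller Scrublet also kept all 455 calls, but it could hardly remove one. Scrublet marked 0 members, and 0 and 3 kept cells of suffixes 3 and 4. Of 16 conventional dendritic cell markers 4 were measured and 1 called, and the list summed to 377 and 442 CPM in members of suffixes 3 and 4 against 464 and 444 CPM in other cells. The called gene, Cd209a, a lectin of monocyte-derived dendritic cells, had 37.8 and 55.8 CPM in members against 5.54 and 2.66 CPM in other cells, and it passed the minimum only through the members. MHC class II genes, which present antigen, had 5 of 10 measured and none called. H2-Aa and H2-Eb1 stood at 1.11 and 0 CPM and at 0 and 0 CPM in members, against 3.98 and 9.51 CPM and 0.664 and 4.31 CPM in other cells.

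**Figure D3:**
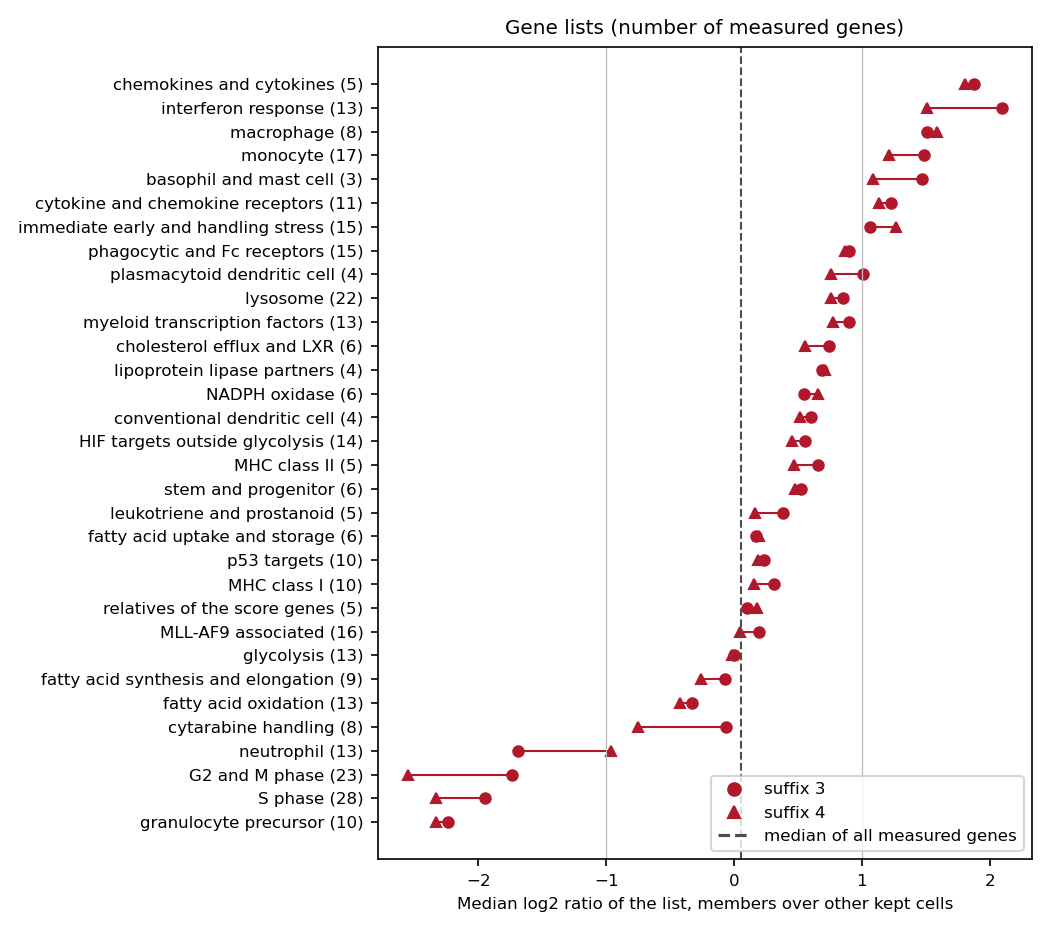
Median log2 ratio, members over other kept cells, of the measured genes of each list with at least 3 of them, in suffix 3 (circles) and suffix 4 (triangles), with the median of all measured genes dashed. Chemokine, interferon, macrophage and monocyte lists lie at the upper end, and granulocyte precursor, S phase and G2/M phase lists at the lower end.

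Genes of the interferon response were among the leading higher genes. Interferons act through a STAT and IRF complex that binds promoter elements and switches on antiviral genes. Of 13 measured members of the list, 7 were called higher and 0 lower, with a median log2 ratio of 1.84. The filter bears on this count, since 6 of the 7 (all but Ifitm3) passed the minimum only through the members, and of the other 7 measured genes 1 was called. Ifit3, which binds viral RNA complexes, had 74.5 and 81.4 CPM in members of suffixes 3 and 4 against 1.99 and 4.44 CPM in other cells, a pooled ratio of 24.7 (17.8 to 34.8). Isg15, a ubiquitin-like modifier, had 95.6 and 113 CPM in members against 10.1 and 13.8 CPM in other cells. Ifitm3, a membrane protein that blocks viral entry, had 1558 and 1346 CPM in members against 177 and 186 CPM in other cells. Members of both suffixes were above the other cells of both suffixes for each of the 3. Irf7, the factor that amplifies interferon production, stood at 142 and 131 CPM in members against 11.96 and 17.4 CPM in other cells, and Oasl2, Zbp1 and Xaf1 were the remaining 3 called. Slfn1 of the Schlafen family, which is on no list, had 53.4 and 42.2 CPM in members against 3.65 and 4.69 CPM in other cells. It too passed the minimum only through the members. Plasmacytoid dendritic cell markers, a list that shares Irf7 and Bst2 with this one, had 4 of 11 measured and 1 called.

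The promoters of 3 of these genes are shown because they carry the interferon-type element among the leading genes. A window of 250 bases before to 50 bases after the start of each gene was taken from RefSeq (GRCm38.p6) and read on the gene's strand. Capitals mark 2 copies of TTTC, or of GAAA for the other strand, with any 2 bases between them, and there are 2 matches in Ifit3, 3 overlapping ones in Isg15 and 2 in Ifitm3. The windows are chr19:34583279-34583578 (plus strand), chr4:156200769-156201068 (minus strand) and chr7:141010695-141010994 (minus strand).
Ifit3: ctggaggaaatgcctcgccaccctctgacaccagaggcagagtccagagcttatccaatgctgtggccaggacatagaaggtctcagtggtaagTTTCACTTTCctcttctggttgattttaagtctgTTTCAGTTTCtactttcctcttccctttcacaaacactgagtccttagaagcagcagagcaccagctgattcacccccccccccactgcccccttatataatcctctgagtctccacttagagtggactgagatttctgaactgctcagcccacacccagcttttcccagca
Isg15: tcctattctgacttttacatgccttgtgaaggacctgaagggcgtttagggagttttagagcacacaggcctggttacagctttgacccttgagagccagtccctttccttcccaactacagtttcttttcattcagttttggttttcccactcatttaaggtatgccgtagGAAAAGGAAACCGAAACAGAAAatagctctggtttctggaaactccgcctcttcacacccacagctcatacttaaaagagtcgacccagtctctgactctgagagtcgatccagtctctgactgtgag
Ifitm3: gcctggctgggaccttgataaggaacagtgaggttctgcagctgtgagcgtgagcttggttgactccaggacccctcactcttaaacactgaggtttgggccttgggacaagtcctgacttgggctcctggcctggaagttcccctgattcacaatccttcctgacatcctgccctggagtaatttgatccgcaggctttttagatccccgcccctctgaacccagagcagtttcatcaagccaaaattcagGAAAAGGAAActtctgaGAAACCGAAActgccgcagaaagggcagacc
Of the 7 interferon genes called higher, 6 had a promoter in the table and these 3 held the element, while over the whole interferon list 14 of 21 promoters (66.7%) held it. Over all 27025 genes with a promoter 3.99% held it, over measured genes 4.08%, over the genes higher in members 8.79% and over those lower in members 2.25%. Tgfbi, described below, held it as well, and none of the 4 score genes with a promoter did (Lpl had no entry). A match describes letters in the window and shows no binding.

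Interferon transcripts were concentrated in a part of the members. With cells thinned to 2000 UMIs, the list without its Ifitm genes had a median of 1 UMI and a 90th percentile of 6 and 3 UMIs in members of suffixes 3 and 4, against a median of 0 and a 90th percentile of 2 in other cells of both suffixes. In unthinned counts, the 10% of members with the most of these UMIs held 55.7% and 66.2% of them, against 31.1% and 38.3% for the top 10% of other cells. When the top 10% was left out on both sides, the list median was 0.75. On the log2 scale Ifit3 stood at 1.86, Isg15 at 2.23, Irf7 at 2.39 and Ifitm3 at 3.05. Ifit3, Isg15, Slfn1, Oasl2, Zbp1 and Xaf1 were under the 20 CPM minimum and so were no longer called. The cells left out were those with the most UMIs of this list without its Ifitm genes. The lower values and lost calls of the ranking genes were therefore largely fixed by that choice. Ifitm3 and Slfn1 were not among the ranking genes.

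Chemokines and their receptors were higher in members. Of 5 measured chemokines and cytokines 4 were called higher, with a median log2 ratio of 1.84. Ccl6 had 92.3 and 158 CPM in members of suffixes 3 and 4 against 17.5 and 29.7 CPM in other cells. Ccl3, which attracts monocytes and neutrophils, had 327 and 306 CPM in members against 88.1 and 86.6 CPM in other cells, and Ccl4, of the same family, had 43.4 and 39.2 CPM in members against 7.42 and 8.24 CPM in other cells. Ccl9 was the fourth, with 645 and 707 CPM in members against 240 and 244 CPM in other cells. Of these 4, Ccl4 passed the minimum only through the members. Of 11 measured cytokine and chemokine receptors 5 were called higher (median 1.20), namely Ccr2, Cx3cr1, Ccr1, Il6ra and Csf2ra, the last a chain of the GM-CSF receptor. Of these, Cx3cr1, Ccr1, Il6ra and Csf2ra lost the call both when cells were thinned to 2000 UMIs and when cycling cells were left out of both sides, and Ccr2 kept it.

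Genes of uptake and degradation were shifted by smaller amounts. Of 22 measured lysosome genes 7 were called higher and 0 lower, with a median log2 ratio of 0.86, and the list summed to 8883 and 9077 CPM in members of suffixes 3 and 4 against 5248 and 5465 CPM in other cells. Ctss and Ctsl, cathepsins that cleave proteins, were at log2 ratios of 1.80 and 1.60, and Grn, which encodes progranulin, at 1.22. Ctsl and Grn lost the call when cycling cells were left out of both sides, and Grn also when cells were thinned to 2000 UMIs. Lipa, the acid lipase that frees cholesterol and fatty acids in lysosomes, had 73.4 and 85.9 CPM in members against 34.7 and 30.8 CPM in other cells. Tfeb and Asah1 were called as well, and Tfeb passed the minimum only through the members. Lipa and Asah1 were each called in 9 of 18 alternatives and Tfeb in 12, losing the call with TMM factors among others. Of 15 measured phagocytic and Fc receptor genes 3 were called higher (median 0.88): Itgam, a chain of the complement receptor, and the lectins Clec4a1 and Clec4a3. Clec4a1 and Clec4a3 passed the minimum only through the members, and of the 12 genes that did not, 1 was called. Tyrobp, the adaptor of many of these receptors, stood at 4461 and 4430 CPM in members against 2385 and 2268 CPM in other cells, just under the 2-fold rule. The lysosome list was spread evenly, since the 10% of members with the most UMIs held 18.5% and 18.6% of them.

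Several transcription factors of myeloid and early response type were higher. Of 13 measured myeloid transcription factors 5 were called higher and 0 lower (median log2 ratio 0.83). Klf2, which restrains myeloid activation, had 520 and 639 CPM in members of suffixes 3 and 4 against 136 and 147 CPM in other cells. Klf4, Klf6, Id2 (lost with TMM factors) and Gata2 were the others, while Spi1 and Irf8, factors of the monocyte lineage, stood at 0.72 and 0.60 on the log2 scale without a call. Klf6, Id2 and Gata2 lost the call when cycling cells were left out of both sides. Id2 and Gata2 also lost it when cells were thinned to 2000 UMIs. Of 15 measured immediate early and handling stress genes 8 were called higher, among them Ier5, Zfp36, Junb, Fos and Jund, and 1 lower, the chaperone Hsp90aa1, which had 212 and 216 CPM in members against 605 and 631 CPM in other cells. Jund was called in 11 of 18 alternatives, and Zfp36, Fos and Hsp90aa1 lost the call when cycling cells were left out of both sides. Ier5 passed the minimum only through the members. This list is sensitive to cell handling, its median was 1.17, and its part in the other results was not tested.

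Other leading genes came from no list. Tgfbi, a secreted matrix protein induced by TGF-beta, had 96.7 and 98.0 CPM in members of suffixes 3 and 4 against 11.4 and 7.61 CPM in other cells. Lilrb4a, an inhibitory receptor, had 111 and 127 CPM in members against 15.5 and 16.7 CPM in other cells. Tlr13, an endosomal sensor of bacterial ribosomal RNA, had 61.1 and 52.8 CPM in members against 7.97 and 6.97 CPM in other cells. These 3 genes were called in every alternative that was run, some of which cannot remove a call. All 3 were below 20 CPM in other cells, so they were measured only through the members. Ckb, a creatine kinase, stood at a log2 ratio of 3.11, Pid1 at 2.69, March1, a ubiquitin ligase that acts on MHC class II, at 2.26, and S100a6, a calcium-binding protein, at 2.20. Retnla, a secreted resistin-like protein of alternatively activated macrophages and eosinophils, had 83.4 and 315 CPM in members against 7.75 and 5.58 CPM in other cells. Retnla was therefore also measured only through the members. Its level came from few cells, since 3 members of suffix 3 and 5 of suffix 4 held 5 or more of its UMIs. With members defined as the top 5% its log2 ratio was 2.36 and the call was lost.

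Few lipid genes around Lpl were called, and the medians of their lists differed in sign, though not every sign was stable. Fatty acid uptake and storage stood at -0.07 with no minimum CPM and at -0.06 with both sides limited to low cell cycle UMIs. It stood at -0.008 against other cells without any UMI of the score genes. Synthesis and elongation stood at 0.002 when the score came from thinned cells. Of 26 genes listed as partners of lipoprotein lipase, among them receptors, regulators and other lipases, 4 were measured and 1, Lipa, was called higher (median log2 ratio 0.63). Gpihbp1, which anchors the enzyme in capillaries, and the receptors Cd36 and Vldlr had no UMI in members or other cells of suffixes 3 and 4. Of 6 measured genes of fatty acid uptake and storage 0 were called higher and 1 lower (median 0.25), the fatty acid binding protein Fabp5, with 24.5 and 16.6 CPM in members against 90.4 and 87.6 CPM in other cells. Plin2, which coats lipid droplets, had 122 and 157 CPM in members against 82.1 and 96.9 CPM in other cells. Fatty acid oxidation had 0 of 13 measured genes higher and 2 lower, Etfb and, in 10 of 18 alternatives, Eci1 (median -0.31), and synthesis and elongation had none of 9 called (median -0.17). Of 6 measured genes of cholesterol efflux, 2 were called higher, Apoe and Lipa (median 0.65), and of 2 measured cholesterol synthesis genes 1 was lower, Fdps at a log2 ratio of -1.40. In the leukotriene pathway, to which Cyp4f18 belongs, Alox5ap, which hands the substrate to 5-lipoxygenase, had 1119 and 1238 CPM in members against 513 and 515 CPM in other cells, and lost the call with TMM factors. Alox5ap also lost it when cells were thinned to 2000 UMIs and when cycling cells were left out of both sides. Dpep2, a dipeptidase of leukotriene conversion, was higher as well but passed the minimum only through the members. Lta4h, the enzyme that makes leukotriene B4, was lower, with 51.1 and 45.2 CPM in members against 171 and 162 CPM in other cells. Among relatives of the score genes none of 5 measured was called. Wfdc18 had 27.8 and 27.1 CPM in members against 2.66 and 2.41 CPM in other cells, under the minimum for a call.

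Most measured cell cycle genes were lower in members. Of 28 measured S phase genes 23 were called lower and 0 higher (median log2 ratio -2.25), and for the G2/M list the numbers were 15 lower and 0 higher of 23 measured (median -2.15). Rrm2, a subunit of the enzyme that makes deoxynucleotides, had 8.89 and 3.01 CPM in members of suffixes 3 and 4 against 109 and 104 CPM in other cells. Ccnb2, a mitotic cyclin, had 3.33 and 1.51 CPM in members against 76.3 and 86.2 CPM in other cells. Tk1, thymidine kinase of the cycle, had 3 UMIs in the members of both suffixes together, a pooled ratio of 0.0236 (exact conditional 95% interval 0.00486 to 0.0691). Lig1, a DNA ligase of replication, Spc24, a kinetochore subunit, and 2810417H13Rik stood at log2 ratios of -4.03, -3.56 and -4.15, and with Tk1 these 3 are outside the 2 lists. Among single cells thinned to 2000 UMIs, S phase genes had a 90th percentile of 3 and 2.1 UMIs in members of suffixes 3 and 4 against 11 and 11 UMIs in other cells, so cells with many such UMIs were rarer among members.

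Because other cells include cycling ones, both sides were also limited to cells with at most 33.2 S and G2/M phase UMIs per 10000, the 90th percentile of members, a choice made after the data were seen. This left 386 members and 1373 of 2601 other cells, with 89 genes higher and 48 lower. Of the 417 calls outside the 2 cycle lists 119 were shared. Those kept include Tgfbi, Ifitm3, Apoe, Lyz2, Ccr2, Fn1, Klf4, Ccl6 and Mpo, at log2 ratios of 2.74, 2.08, 2.16, 1.33, 1.51, 1.92, 1.25, 1.67 and -3.79, and Adgre1, Trem2, Hmox1, Itgam, Fabp5 and Gata2 were among those lost. The monocyte list then had a median of 0.94, the macrophage list 0.89, the lysosome list 0.52 and the chemokine list 1.35.

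**Figure D4:**
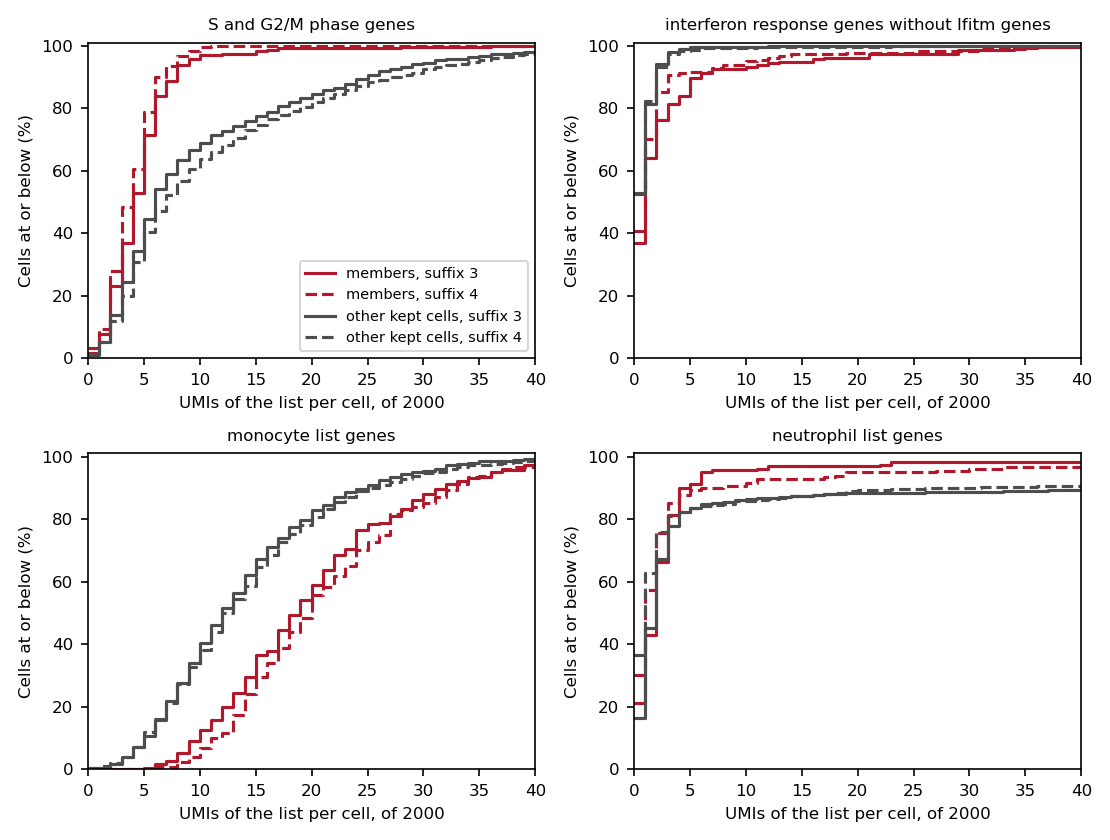
Percent of cells (vertical axis) with at most a given number of UMIs of a gene list (horizontal axis, of 2000 UMIs per thinned cell), for members (red) and other kept cells (grey), with solid lines for suffix 3 and dashed lines for suffix 4. For S and G2/M phase genes 93.9% and 96.7% of members lie at or below 8 UMIs, against 63.5% and 56.6% of other cells, and in the interferon panel 91.3% and 91.7% of members lie at or below 6 UMIs, against 99.5% and 99.1% of other cells.

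Granule genes of neutrophil precursors were lower. Of 10 measured granulocyte precursor genes 6 were called lower and 0 higher (median log2 ratio -2.31). Mpo, myeloperoxidase, had 25.6 and 15.1 CPM in members of suffixes 3 and 4 against 485 and 480 CPM in other cells. Elane and Ctsg, serine proteases of primary granules, had 410.1 and 440.1 CPM and 251 and 274 CPM in members against 2928 and 3046 CPM and 1419 and 1543 CPM in other cells. Prtn3, the third of these proteases, stood at 1896 and 2088 CPM in members against 1931 and 2136 CPM in other cells, a log2 ratio of -0.03. Ms4a3, a marker of granulocyte and monocyte progenitors, had 3 UMIs in members of suffix 3 and none in suffix 4 against 97.9 and 74.2 CPM in other cells, a pooled ratio of 0.0221 (0.00455 to 0.0647). Of 13 measured neutrophil genes 5 were lower, among them Camp and Ngp of secondary granules, and 1, the collagenase Mmp8, was higher. Camp had 177 and 60.3 CPM in members against 3357 and 3097 CPM in other cells. These UMIs came from few cells on both sides, since the top 10% held 77.0% and 79.1% of the neutrophil list's UMIs in members and 94.2% and 94.4% in other cells. With the 8% of kept cells that scored highest for Ngp, Camp, Ltf, S100a8 and S100a9 left out of both sides, the neutrophil median was 0.39 and Camp stood at -0.08 and Fcnb at -0.46, Mmp8 stood at 0.79 and none of the 3 was called, while Mpo and Elane stood at -4.57 and -2.78. Ms4a3 stood at -4.02 there, under the 20 CPM minimum, and the granulocyte precursor median was -0.46. Camp is among the genes that chose the cells left out. Its change was largely fixed by that choice, as was part of the change in the neutrophil median.

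Genes tied to MLL-AF9 and glycolysis were close to the other cells, and HIF targets outside glycolysis were divided. Of 16 measured MLL-AF9 associated genes none was called, and their median log2 ratio was 0.09, or -0.02 with TMM factors. Hoxa9 and Meis1, homeobox genes that the fusion sustains, stood at 176 and 155 CPM and 55.6 and 54.3 CPM in members of suffixes 3 and 4 against 168 and 155 CPM and 48.3 and 50.6 CPM in other cells. Their log2 ratios were 0.03 and 0.15, whereas Kit, the receptor of early progenitors, had no UMI in members against 6.53 and 6.34 CPM in other cells. Of 6 measured stem and progenitor genes 1 was higher, Gata2, and 1 lower, Sox4, with 11.1 and 9.04 CPM in members against 47.5 and 41.6 CPM in other cells. Hif1a, the gene deleted in the knockout, had 52.2 (38.4 to 69.5) and 33.2 (20.8 to 50.2) CPM in members against 27.2 (23.9 to 30.9) and 26.0 (22.6 to 29.8) CPM in other cells, and the counting intervals overlap in suffix 4. The labels do not say which exons are removed, so 3' counts check nothing about genotype. Of 14 measured targets of HIF outside glycolysis 4 were higher, Ndrg1, Ddit4, Hmox1 and Lgals3, and 1 lower, the cytokine Mif, with 62.2 and 72.4 CPM in members against 282 and 364 CPM in other cells. Ndrg1, Ddit4 and Hmox1 lost the call when both sides were limited to low cell cycle UMIs, at log2 ratios of 0.62, 0.88 and 0.95. Lgals3 and Mif kept it, and Ddit4 passed the minimum only through the members. The median log2 ratio of these HIF targets was 0.53, against 0.05 over all measured genes, and it was between 0.24 and 0.69 in the alternatives. Against the cells high in monocyte genes that are described below, none of 16 measured targets was called and the median was 0.02. Of 13 glycolysis genes 1 was higher, the lactate exporter Slc16a3, and the median was 0.04, or -0.07 with TMM factors. Of 10 measured p53 targets 1 was higher, Btg2, which is also an early response gene.

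Genes that handle cytarabine, the nucleoside given as chemotherapy, were divided. Of 8 measured 1 was higher and 3 lower (median log2 ratio -0.35). Samhd1, which hydrolyses deoxynucleotides and the active form of cytarabine, had 253 and 228 CPM in members of suffixes 3 and 4 against 68.4 and 67.2 CPM in other cells, a pooled ratio of 3.57 (3.17 to 4.02). Nme1, a nucleoside diphosphate kinase, had 60.02 and 33.2 CPM in members against 249 and 276 CPM in other cells, and the other 2 lower genes, Rrm1 and Rrm2, are also S phase genes. Samhd1 was called in every alternative that was run, some of which cannot remove a call. Against the cells high in monocyte genes that are described below, 8 genes of this list were measured. There 0 were called higher and 3 lower, with a median of -0.48.

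Of the 3 sets of cells that were compared with the members, those high in monocyte genes were the most similar. The 8% of kept cells that scored highest for Csf1r, Ccr2, Fn1, Klf4 and Ms4a6c shared 160 cells with the members, 36.7% of either set. They made up 34.8% and 39.8% of the members of suffixes 3 and 4, against 10.9% and 9.26% of the other cells there. Cells outside the overlap were then compared, 159 and 112 members with 150 and 113 monocyte-score cells of suffixes 3 and 4, whose median depths were 3463 and 3461 UMIs against 4392 and 4492 UMIs. Of 4666 genes, 38 (0.814%) were at least 2-fold higher in members in both suffixes and 70 (1.5%) lower, with a median of -0.02 over all genes. Macrophage, lysosome and interferon lists stood at medians of -0.11, -0.02 and 0.24, with 0 genes higher in any of the 3 lists and 1, 1 and 0 lower. The interferon median differed in sign between suffixes, at 0.57 in suffix 3 and -0.13 in suffix 4. Of 12 measured monocyte genes outside those that chose the cells, 0 were higher and 2 lower (median -0.40). Members also held more of each score gene, such as Tgm3 at 238 and 240 CPM against 46.1 and 37.1 CPM in monocyte-score cells, which the choice of cells fixes.

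Members were lower than monocyte-score cells in many cell cycle genes and in 2 genes of MHC class II presentation. Of 7 measured MHC class II genes these 2 were lower and 0 higher (median -0.07), and of 10 MHC class I genes none was called. Cd74, the invariant chain of MHC class II, had 10.4 and 15.1 CPM in members of suffixes 3 and 4 against 75.4 and 228 CPM in monocyte-score cells. H2-Aa had 1 UMI in members of suffix 3 and none in suffix 4, against 14 and 51 UMIs in monocyte-score cells. Of 18 measured S phase genes 10 were lower, and of 19 G2 and M phase genes 10. Psap, a lysosomal precursor of sphingolipid activators, had 561 and 595 CPM in members against 1540 and 1763 CPM in monocyte-score cells. S100a10, S100a4, Trem2, Clec4a1, Chil3 and Nrp1 were lower as well, and of these Trem2, Clec4a1, S100a4 and Nrp1 had been called higher in members than in the other cells at large. Clec4a1 lost this call, at a log2 ratio of -1.13, when neutrophil-score cells were left out of both sides.

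Members were higher in 2 of 5 measured chemokines and cytokines (median log2 ratio 0.58), in Gata2 and Cpa3 and in several granulocyte genes, beside the 0.814% of all genes called higher. Ccl3 had 349 and 343 CPM in members of suffixes 3 and 4 against 149 and 148 CPM in monocyte-score cells, and Ccl4 had 50.1 and 52.97 CPM against 19.6 and 18.6 CPM. Gata2 had 96.6 and 60.5 CPM in members against 18.2 and 9.28 CPM in monocyte-score cells, and Cpa3 had 302 and 164 CPM against 71.2 and 31.6 CPM. Cebpe, a transcription factor of granulocyte maturation, had 135 and 134 CPM in members against 36.3 and 46.4 CPM in monocyte-score cells. Fcgr4, an activating Fc receptor, and Tlr13 were higher too. Retnla had 36 and 120 UMIs in members against 1 and 0 UMIs in monocyte-score cells. S100a8, S100a9, Lcn2, Retnlg, Stfa2l1, Stfa3, BC100530 and Gm5483 were also at least 2-fold higher, but none of these 8 was called when the neutrophil-score cells were left out of both sides, which left 29 genes higher and 69 lower, and Stfa3 then stood at -0.99 on the log2 scale. Gata2, Cpa3 and Cebpe were still called then, as was Retnla, at a log2 ratio of 4.44 in place of 6.48 and with 4 UMIs in members of suffix 3 against 1 UMI in monocyte-score cells. S100a8 and S100a9 are among the genes that chose the neutrophil-score cells, so their lost calls were largely fixed by that choice.

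**Figure D5:**
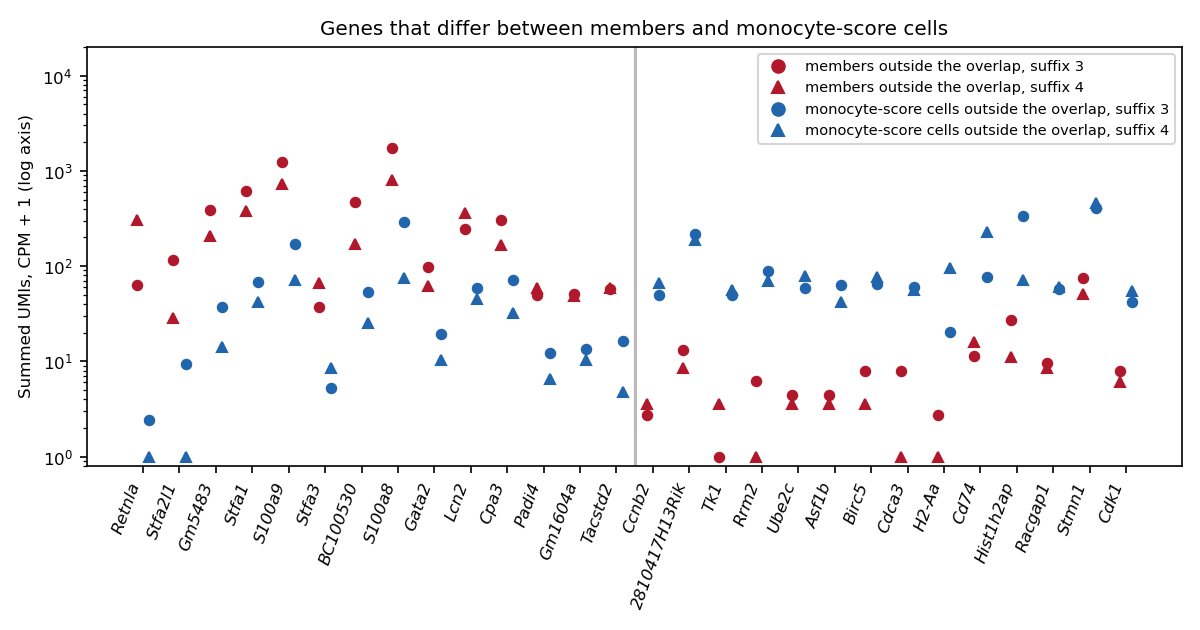
Level of the 14 leading higher and 14 leading lower genes as CPM + 1 on a log axis, for members (red, left of each pair) and monocyte-score cells (blue), both outside their overlap, with circles for suffix 3 and triangles for suffix 4. Values at 1 are genes with no UMI, and S100a8 and S100a9 are the highest among the genes on the left.

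Neutrophil-score cells and cells scored for Prg2, Prg3, Clec4a2, Mogat2 and Retnla were less like the members. They shared 25 (5.73%) and 39 (8.94%) cells with them. Neutrophil-score cells were 6.97% and 3.76% of members of suffixes 3 and 4 against 17.3% and 10.0% of other cells, and Prg2-score cells were 7.38% and 10.8% of members against 14.05% and 14.4% of other cells. Against neutrophil-score cells 501 of 4511 genes (11.1%) were higher in members and 217 (4.81%) lower, and against Prg2-score cells 423 of 4537 (9.32%) were higher and 190 (4.19%) lower.

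Members of suffix 4 were close to those of suffix 3, with 24 of 4651 genes (0.516%) at least 2-fold higher and 87 (1.87%) lower. Chil3, a chitinase-like protein of myeloid cells, had 1046 CPM in members of suffix 4 against 165 CPM in those of suffix 3, and 1851 CPM against 1320 CPM in the other cells of these suffixes. Retnla had 315 CPM in members of suffix 4 against 83.4 CPM in those of suffix 3, where 5 and 3 members held 5 or more of its UMIs. Ngp, Ltf and Retnlg were lower, at 21.1, 1.51 and 10.6 CPM in members of suffix 4 against 197, 27.8 and 106 CPM in those of suffix 3. In the other cells they stood at 1787, 68.1 and 25.9 CPM in suffix 4 against 2074, 122 and 37.4 CPM in suffix 3. All 3 are on the neutrophil list, of whose UMIs the top 10% of members held 77.0% in suffix 3 and 79.1% in suffix 4. The S phase genes Mcm5, Mcm7 and Tyms were lower in members of suffix 4, at 6.03, 7.54 and 4.52 CPM against 26.7, 27.8 and 20.01 CPM in suffix 3, whereas the log2 ratios between the other cells of these suffixes were -0.02, 0.02 and 0.02. These genes were picked from the 87 lower ones, and their levels in suffix 4 lie at or near 4.52 CPM, which is 3 UMIs there. With 1 sample per suffix and no label, these gaps carry no error between animals and no condition.

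No excluded barcode belonged to the members by score. Of the 208 barcodes above the mitochondrial limit, 0 reached the lowest member score, which allows a share of up to 1.44% by 3 counts. Across suffixes, 17 barcode sequences occur under more than 1 suffix, and 3 members carry such a sequence.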

How the data were processed

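The authors deposited 1 table of UMI counts, whole numbers with no normalization, for 27998 genes and 5664 barcodes. Per the submitters' processing notes, Cell Ranger 1.3 was used with the mm10 build and Seurat 2.3.4 afterwards, and the design text gives another Seurat version. No source used here names the gene annotation. The counts were summed over members and over other kept cells of a suffix, with Python 3.11.15, numpy 2.4.6 and scipy 1.17.1. A pseudocount of 1 CPM, a minimum mean of 20 CPM and a minimum of 30 cells on each side were used. Members of suffixes 1 and 2 entered no ratio. Intervals are exact at 95%. Members hold fewer UMIs, so their intervals are wider.

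Members, gene lists and markers were chosen with earlier results of these data known. Named genes are the 20 higher and 10 lower ones with the largest smaller-of-2-suffixes change and at least 50 CPM on the higher side, the called and the 2 most abundant genes of each list, Hif1a and the score genes. Genes below the minimum, relatives and absent markers are named outside it, after their values were seen. Other called list genes are given as counts, and some are not reported here. Scrublet (scanpy 1.11.5) marked 27 of 5456 cells (0.495%), 0 of them members, so it is taken not to have worked, and doublets were not removed. Sums and ratios were tested on simulated data. TMM factors came from edgeR 4.0.16.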

Additional observations from a re-analysis of the deposited data

How the results depend on the processing

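Counts of 234 higher and 221 lower genes stayed within 1.5 times in most alternatives. They were 424 and 462 with a minimum of 5 CPM and 510 and 830 with no minimum. Averaging over cells gave 152 higher, and other cells without any UMI of the score genes gave 500 higher. Limiting both sides to low cell cycle UMIs gave 89 and 48. Leaving out 1 suffix gave 343 to 375 higher and 277 to 379 lower. Against monocyte-score cells, the counts of 38 and 70 became 129 and 244 with a minimum of 5 CPM and 134 to 142 and 148 to 265 with 1 suffix left out, and 58 were higher when cells were thinned. A call in 1 suffix is easier than in 2. Thinning shared 281 of the 455 calls and averaging over cells 291. Of 32 list medians 13 changed sign in at least 1 alternative. Among them was the neutrophil list (0.39 without neutrophil-score cells). S100a9 stood at 0.21 and Ltf at 0.33 there, but both are among the genes that chose those cells. The basophil and mast cell list (-0.076 with no minimum) was another. Others were the leukotriene list (0.27, and -0.82 against cells without any UMI of the score genes), the plasmacytoid dendritic cell list (-0.099 with no minimum), the conventional dendritic cell list (-0.062 with a minimum of 5 CPM) and relatives of the score genes (-0.14 against cells without any UMI of the score genes), and the causes were not tested. The shares of 15.0% and 13.2% stayed inside their intervals under all 7 alternatives, from 14.03% to 16.2% and from 11.9% to 14.4%. The 4 alternatives that restrict cells by neutrophil score, interferon or cell cycle UMIs were added after the data were seen. No paired analysis was possible because barcodes carry no replicate or sample label. Levels at or under 3.33 and 4.52 CPM in members of suffixes 3 and 4 rest on at most 3 UMIs.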
